A study of Mus musculus with 10 samples.

Results

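The clustered protocadherins are cell surface proteins of the cadherin superfamily, encoded in the alpha, beta and gamma clusters on mouse chromosome 18. Members were taken by symbol, as every entry named *Pcdha*, *Pcdhb* or *Pcdhg* followed by its isoform number, from a table of 26888 genes. This gave 25 entries, of which 2 belonged to alpha, 21 to beta and 2 to gamma. Each cluster was compared between culture conditions in 10 RNA-seq libraries of OP9, a stromal line from the calvaria of (C57BL/6xC3H)F2-op/op mice, whose *op* allele removes functional macrophage colony-stimulating factor. In 6 libraries, the cells had been dispersed with trypsin, pelleted into reaggregates and kept for 48 h at the liquid-gas interface on nitrocellulose filters of 0.8 µm, and they were released with collagenase/dispase before RNA extraction. Reaggregates 2, 4 and 6 received IL-3, at a dose given as 200 µg/µl, and reaggregates 1, 3 and 5 did not. In the other 4 libraries, the cells had been kept in flat culture submersed in medium. Flat cultures 2 and 4 carried the label of the de Bruijn lab, and no source was labelled for flat cultures 1 and 3 or for the reaggregates. The Methods place the flat cells earlier in the Medvinsky or the de Bruijn group and mention passage number as a source of variance, without saying which library had which passage. All libraries came from 1 cell line, and nothing stated that replicates were separate experiments.

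Alpha and gamma proteins are made from a variable exon with its own promoter, spliced to constant exons that all isoforms of the cluster share, whereas most beta genes are a single exon with no constant part. The extracellular domains recognise the same isoform on a neighbouring cell, and the clusters are best known from neurons, where different combinations of isoforms give each cell an identity. Promoter choice in the clusters involves CTCF, cohesin and DNA methylation.

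Expression was measured as RPM, the reads of a gene per 1e6 reads on genes. The commonest RPM value above 0 in a library was taken as 1 read, which gave between 7.35 and 9.43 M reads per library (M, 1e6 reads). The floor of detection was set at 3 reads, which is 0.318 RPM in the deepest and 0.408 RPM in the shallowest library and takes account of counting error alone. Fold changes were fitted with limma on log2(RPM + 0.5) in the 16933 genes that exceeded 0.5 RPM in some library, a scale that understates the change of low genes. A call needed a change of 2-fold or more and an adjusted p (Benjamini-Hochberg, over all genes tested) not above 0.05. Reaggregates 1 and 2, 3 and 4, and 5 and 6 were the most alike. Pearson's r across genes, not a test since genes are not replicates, ranged from 0.994 to 0.995 in these 3 pairs, and from 0.961 to 0.980 in the remaining 12.

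All 3 clusters had more reads in reaggregates than in flat cultures. The gamma entries summed to 1301 ± 115 RPM in reaggregates (SD, n = 6) and to 442 ± 169 RPM in flat cultures (SD, n = 4), which differ by 1.64 in log2(sum + 0.5). The beta entries summed to 151 ± 37.9 RPM and 41.7 ± 22.2 RPM, a difference of 1.95 on the same scale. The alpha entries were close to the floor, at 0.546 ± 0.220 RPM and 0.189 ± 0.0757 RPM. For the beta and gamma sums, the lowest reaggregate lay well above the highest flat culture. For alpha the corresponding values, 0.257 and 0.242 RPM, were both about 2 reads and under the floor. Since these are bulk libraries, more cells expressing a gene and more RNA per cell cannot be told apart. Sums over chosen members were given no test.

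In the fit of single genes, 22 of the 25 entries were above 0.5 RPM in at least 1 library, and 15 of these were up-regulated in reaggregates. None of the 22 was down-regulated in limma, and at an unadjusted p under 0.05 there were 20 higher and 0 lower. Over all genes tested, 1239 were up-regulated, or 7.32%, 1106 were down-regulated, or 6.53%, and 7337, or 43.3%, had an unadjusted p under 0.05. Every reaggregate exceeded every flat culture for 13 of the 22 entries and for 1320 of all genes, or 7.8%. Of the 22 entries, 7 were above 0.5 RPM in reaggregates only and so entered the fit through the higher group. Of the other 15, 13 were up-regulated, every reaggregate exceeded every flat culture for 9, and the median log2 fold change was 1.52, against 0.04 over all genes. When consecutive reaggregates were averaged to 3 samples, 321 genes were up-regulated, or 1.90%, among them 3 beta and both gamma entries. Against flat cultures 1 and 3 alone, 627 genes were up-regulated, or 3.70%, among them 5 beta and both gamma entries.

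**Figure D1:**
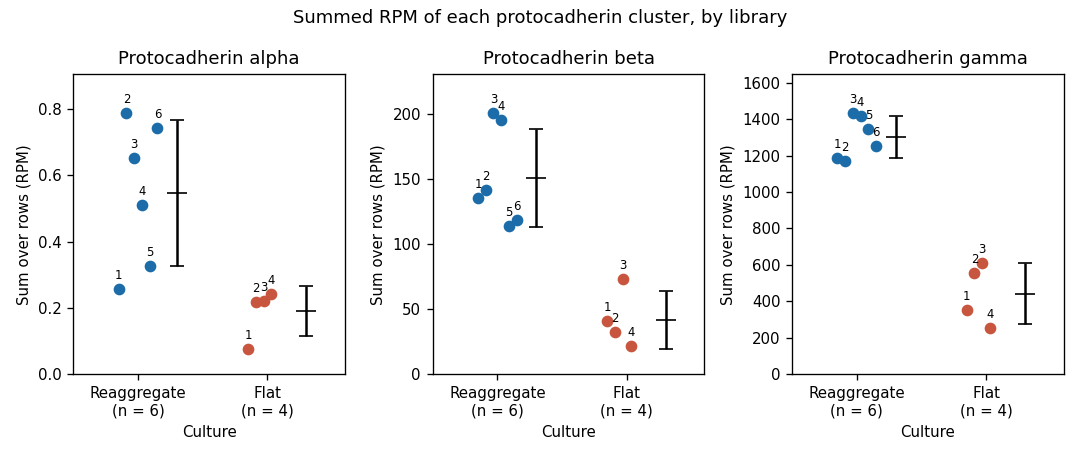
RPM summed over the 2 alpha, 21 beta and 2 gamma entries in each library (vertical axes from 0, a different scale per panel), with reaggregates (n = 6) in blue and flat cultures (n = 4) in red, numbered by replicate, and bars for mean and SD. Every reaggregate lies above every flat culture in all 3 panels, with beta sums between 114 and 200 RPM in reaggregates and between 21.5 and 72.9 RPM in flat cultures.

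The gamma cluster carried most of the protocadherin reads. *Pcdhga11* (ENSMUSG00000023036) was between 1020 and 1250 RPM in reaggregates, with a median of 1130 RPM, and at 305, 485, 525 and 211 RPM in flat cultures 1 to 4. *Pcdhga2* (ENSMUSG00000069394) was between 150 and 181 RPM in reaggregates, with a median of 169 RPM, and at 47.4, 71.3, 83.3 and 39.4 RPM in flat cultures. For both entries, flat culture 4 was the lowest library and flat culture 3 the highest flat culture, and the groups did not overlap. *Pcdhga11* was up-regulated by a log2 fold change of 1.66 (SE 0.24, adjusted p = 0.00088) and *Pcdhga2* by 1.52 (SE 0.20, adjusted p = 0.00042). Both calls held in every setting run. The entries kept a similar proportion. *Pcdhga2* was between 14.2% and 15.7% of *Pcdhga11* in reaggregates and between 14.7% and 18.7% in flat cultures. The authors had shared out reads with several alignments between genes, weighted by the unique reads of each. How far these entries share reads was not measured, so they may not be separate increases.

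By a later annotation, *Pcdhga11* did not stand for a single gamma isoform. In the annotation of the same assembly (NCBI37/mm9), the identifier behind *Pcdhga11* was named *Pcdhgc5* and covered 37833989 to 38001527 of chromosome 18, plus strand, with 10 transcripts from 10 different starts. On this model, its value pools reads over several variable exons and the shared constant exons. The model in the release that the authors counted on was not examined. The identifiers behind *Pcdhga2* and *Pcdha6* had no entry in that annotation, which postdates the Ensembl release of the deposited table. Which gamma isoforms were used by the cells was not analysed here.

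The alpha cluster was close to undetected. *Pcdha11* (ENSMUSG00000007440) was at 0.206, 0.626, 0.572, 0.368, 0.307 and 0.622 RPM in reaggregates 1 to 6 and at 0.0384, 0.109, 0.11 and 0.121 RPM in flat cultures 1 to 4. Only 3 reaggregates and no flat culture exceeded the floor of 3 reads, although the groups did not overlap. Its log2 fold change of 0.66 (SE 0.19, adjusted p = 0.0253) was under the 2-fold threshold, which it passed only with a pseudocount of 0.1. The adjusted p was above 0.05 in several settings, including those that left out reaggregate 2 or 3 or flat culture 1 or 4. *Pcdha6* was between 0.0181 and 0.161 RPM in reaggregates, with a median of 0.101 RPM, under the floor in all libraries, and was identical to *Pcdha11* in each of the 4 flat cultures. In the later annotation, the identifier of *Pcdha11* spanned chromosome 18 from 37089939 to 37347311, again with 10 transcripts from 10 starts. On that model it too stands for several isoforms.

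The beta cluster, with 21 entries between 37424652 and 37681073 on the plus strand, could be read gene by gene. In the annotation 17 of the 21 had a single exon listed over all their transcripts. *Pcdhb6* had 2 transcripts and 2 listed exons, which covered its whole span without a gap. Between 16 and 19 beta genes exceeded the floor in a reaggregate and between 9 and 12 in a flat culture. Per kb of exon, *Pcdhb17* was at 9.02 ± 1.12 RPM per kb (SD, n = 6) and *Pcdhb16* at 8.13 ± 2.30 RPM per kb in reaggregates, levels that did not differ beyond the spread. *Pcdhb9* followed at 5.40 ± 2.24, *Pcdhb5* at 4.17 ± 3.64 and *Pcdhb14* at 3.89 ± 1.26 RPM per kb, which were not separated by their spread either. *Pcdhb22* was at 2.23 ± 0.476 RPM per kb, and the other 15 beta genes were between 0 and 1.30 RPM per kb. In flat cultures *Pcdhb17* and *Pcdhb16* also led, at 3.33 ± 1.12 and 2.39 ± 1.48 RPM per kb (SD, n = 4). Reads on *Pcdhb16* and *Pcdhb17* together made up between 41.5% and 57.6% of all beta reads in reaggregates and between 53.7% and 60.4% in flat cultures. The gamma identifier of *Pcdhga11*, counted over the exons of all its transcripts, was at 39.1 ± 3.57 and 13.2 ± 5.13 RPM per kb.

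*Pcdhb16* was between 30.6 and 58.5 RPM in reaggregates, with a median of 37.6 RPM, and at 12.3, 8.47, 23.6 and 5.95 RPM in flat cultures 1 to 4. *Pcdhb17* was between 24.6 and 33.6 RPM in reaggregates, with a median of 30.4 RPM, and at 10.5, 10.9, 15.5 and 6.59 RPM in flat cultures. Both of these leading genes were up-regulated without overlap, *Pcdhb16* by a log2 fold change of 1.86 (SE 0.33, adjusted p = 0.0028) and *Pcdhb17* by 1.45 (SE 0.21, adjusted p = 0.00098). They differed in their spread, since *Pcdhb17* varied by 12.4% (SD over mean) between reaggregates and *Pcdhb16* by 28.3%. With consecutive reaggregates averaged, the log2 fold changes were unchanged to 2 decimals, with *Pcdhb17* still called (adjusted p = 0.0370) and *Pcdhb16* just over the threshold (adjusted p = 0.0521).

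*Pcdhb9* had the highest log2 fold change of the cluster. It was between 9.30 and 25.6 RPM in reaggregates, with a median of 15.2 RPM, and at 1.72, 0.618, 5.98 and 0.162 RPM in flat cultures 1 to 4. Flat culture 3 stood highest among the flat cultures but under every reaggregate, and flat culture 4 was below the floor. The log2 fold change was 3.13 (SE 0.55, adjusted p = 0.0025), with 3.75 when flat culture 3 was left out and 2.65 when flat culture 4 was left out. It was 2.06 against flat cultures 1 and 3 alone and 4.20 against flat cultures 2 and 4 alone. With the reaggregates with IL-3 alone the log2 fold change was 3.14, but the call was lost (adjusted p = 0.0517). *Pcdhb5* was at 9.72, 7.22, 31.5, 30.7, 6.06 and 3.17 RPM in reaggregates 1 to 6 and at 1.47, 1.23, 3.19 and 1.47 RPM in flat cultures. Reaggregates 3 and 4 were several times above the others, and reaggregate 6 overlapped with flat culture 3. Its log2 fold change of 2.32 had the largest standard error of the cluster (SE 0.58, adjusted p = 0.0131). *Pcdhb19* was the steadiest beta gene in reaggregates, between 3.36 and 4.27 RPM with a median of 4.03 RPM. In flat cultures it was at 0.825, 0.365, 0.948 and 0.125 RPM. Its groups did not overlap, and the log2 fold change was 2.13 (SE 0.25, adjusted p = 0.00026).

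*Pcdhb14* was between 8.47 and 19.2 RPM in reaggregates, with a median of 12.8 RPM, and at 4.27, 3.84, 7.60 and 2.41 RPM in flat cultures. *Pcdhb22* was between 5.09 and 8.53 RPM in reaggregates, with a median of 7 RPM, and at 3.62, 1.29, 3.43 and 0.903 RPM in flat cultures. Neither gene overlapped between groups, and their log2 fold changes were 1.5 (adjusted p = 0.0058) and 1.52 (adjusted p = 0.0070). *Pcdhb18* was between 2.67 and 5.27 RPM in reaggregates, with a median of 4.03 RPM, and at 1.18, 2.50, 2.32 and 1.05 RPM in flat cultures. Its highest flat culture came just under its lowest reaggregate, and its log2 fold change of 1.04 (adjusted p = 0.0132) was close to the 2-fold threshold. *Pcdhb21* was between 2.48 and 6.21 RPM in reaggregates, with a median of 4.89 RPM, and at 2.19, 0.529, 3.52 and 0.786 RPM in flat cultures. *Pcdhb15* was between 1.64 and 4.6 RPM in reaggregates, with a median of 3.96 RPM, and at 1.04, 1.36, 2.30 and 0.741 RPM in flat cultures. *Pcdhb11* was between 1.28 and 3.26 RPM in reaggregates, with a median of 3.04 RPM, and at 0.115, 0, 1.69 and 0.0121 RPM in flat cultures. These last 3 genes overlapped between groups, each because flat culture 3 exceeded the lowest reaggregate. Their log2 fold changes were 1.34 (adjusted p = 0.0256) for *Pcdhb21*, 1.17 (adjusted p = 0.0161) for *Pcdhb15* and 1.93 (adjusted p = 0.0072) for *Pcdhb11*.

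At the lower end of the called genes, *Pcdhb10* was between 0.418 and 1.97 RPM in reaggregates, with a median of 0.971 RPM, and at 0.345, 0.119, 0.359 and 0 RPM in flat cultures. *Pcdhb6* was between 0.360 and 1.99 RPM in reaggregates, with a median of 0.667 RPM, and at 0.000237, 0.000809, 0.12 and 0.0101 RPM in flat cultures. Both were above the floor in all 6 reaggregates and at or under it in all 4 flat cultures. Their fitted log2 fold changes of 1.05 (adjusted p = 0.0219) and 1.32 (adjusted p = 0.0109) therefore depend on the pseudocount. With a pseudocount of 1, *Pcdhb6*, *Pcdhb10*, *Pcdhb15* and *Pcdhb18* were not called. Against flat cultures 1 and 3 alone, *Pcdhb5*, *Pcdhb6*, *Pcdhb10*, *Pcdhb11*, *Pcdhb14*, *Pcdhb15*, *Pcdhb21* and *Pcdhb22* were not called, and against flat cultures 2 and 4 alone all 13 genes were. Between these settings the log2 fold change went from 0.58 to 2.10 for *Pcdhb21*, from 0.84 to 2.19 for *Pcdhb22*, from 0.94 to 1.39 for *Pcdhb15*, from 1.10 to 1.90 for *Pcdhb14* and from 1.34 to 2.53 for *Pcdhb11*. The calls that remained once consecutive reaggregates were averaged were those of *Pcdhb19*, *Pcdhb17* and *Pcdhb9*. Single libraries decided some of the weaker calls. Without flat culture 4, *Pcdhb10*, *Pcdhb15*, *Pcdhb18* and *Pcdhb21* were not called and 9 beta genes were. *Pcdhb10* was also lost without flat culture 2 or reaggregate 3, *Pcdhb18* without flat culture 1 or reaggregate 3, and *Pcdhb21* without flat culture 2 or reaggregate 2.

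**Figure D2:**
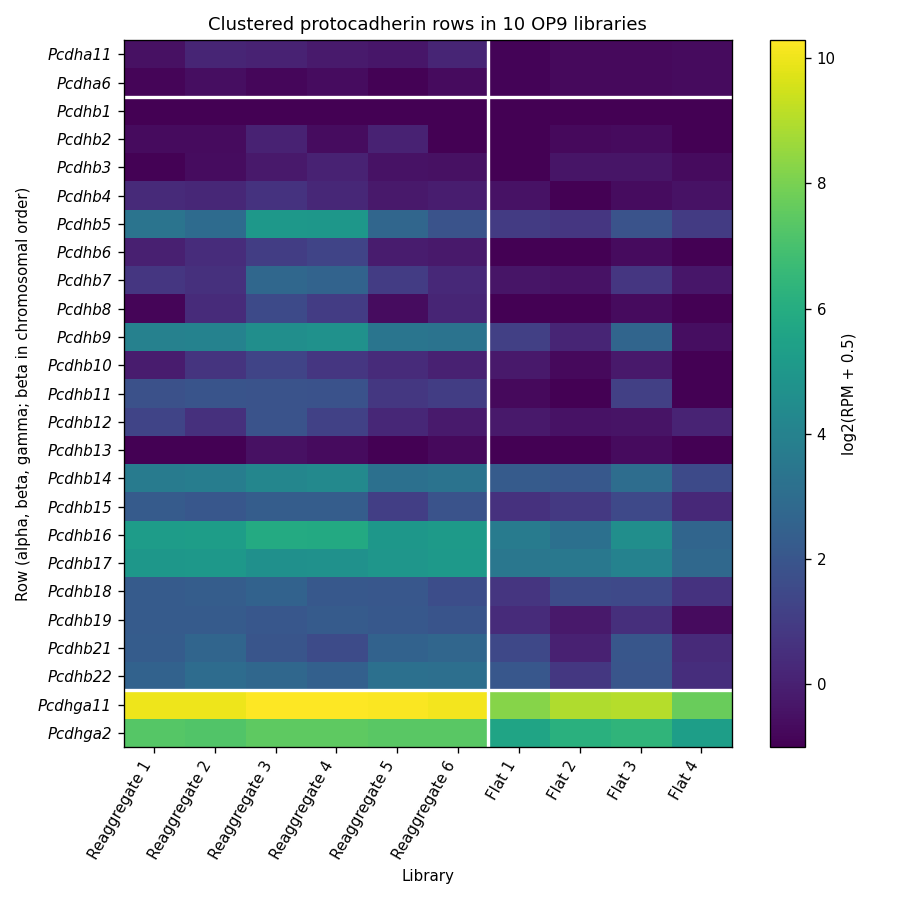
Expression of the 25 entries as log2(RPM + 0.5), shown by colour, in 10 libraries, with entries as lines of the map (beta in chromosomal order) and reaggregates left of the white bar. *Pcdhga11* has the highest RPM in every library, and *Pcdhb1* is at 0 throughout. By mean RPM over reaggregates, *Pcdhb5*, *Pcdhb9*, *Pcdhb14*, *Pcdhb16* and *Pcdhb17* lead the beta cluster, although *Pcdhb22* exceeds *Pcdhb5* in reaggregates 2, 5 and 6.

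The remaining 8 beta genes were not called. *Pcdhb4* had higher values in every reaggregate, between 0.346 and 1.08 RPM against at most 0.243 RPM in flat cultures, with a log2 fold change of 0.82 (adjusted p = 0.0178) under the 2-fold threshold. *Pcdhb7*, *Pcdhb8* and *Pcdhb12* had log2 fold changes of 1.41, 1.2 and 1.07 but missed the p threshold, at adjusted p of 0.0590, 0.0505 and 0.0509. *Pcdhb2* and *Pcdhb3* had log2 fold changes of 0.37 and 0.16 and were at or under the floor in every flat culture. *Pcdhb13* stayed between 0 and 0.219 RPM in all libraries and *Pcdhb1* was listed at 0 in all 10, and neither entered the fit. Of the 19 beta genes tested, 6 had entered the fit through reaggregates only, which favours a rise, and the other 13 had log2 fold changes from 1.04 to 3.13. In a fit without a filter, 20 of all 21 beta genes had log2 fold changes above 0. The sign was the same under quantile normalization and median-ratio scaling. Without a filter, *Pcdhb21* kept a log2 fold change of 1.34 but was not called in limma (adjusted p = 0.0677). Under quantile normalization *Pcdhb10*, at 0.987, fell below the 2-fold threshold.

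Of 7 genes listed next to the clusters, 6 were tested with limma and 0 were called, which is near the shares over all genes of 7.32% up and 6.53% down, with 2 (43.3% of all genes) at an unadjusted p under 0.05 and a median log2 fold change of 0.07. *Taf7*, a subunit of the general transcription factor TFIID located between beta and gamma, averaged 4.65 ± 1.55 RPM in reaggregates (SD, n = 6) against 4.43 ± 1.54 RPM in flat cultures (SD, n = 4). Beyond gamma, *Diap1*, a formin that nucleates actin filaments, was at 106 ± 12.5 and 87.3 ± 8.93 RPM, a log2 difference of 0.28 (adjusted p = 0.1210). *Hdac3*, a histone deacetylase, was higher in every reaggregate, at 145 ± 28.7 and 98.6 ± 19.4 RPM, a log2 difference of 0.55 (adjusted p = 0.0379). On the alpha side, *Hars*, the cytoplasmic histidyl-tRNA synthetase, was lower in every reaggregate, at 58.7 ± 2.48 and 92.1 ± 4.43 RPM, with a log2 difference of −0.64 (adjusted p = 0.0017). *Taf7* and *Hars* were named after their values were seen.

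**Figure D3:**
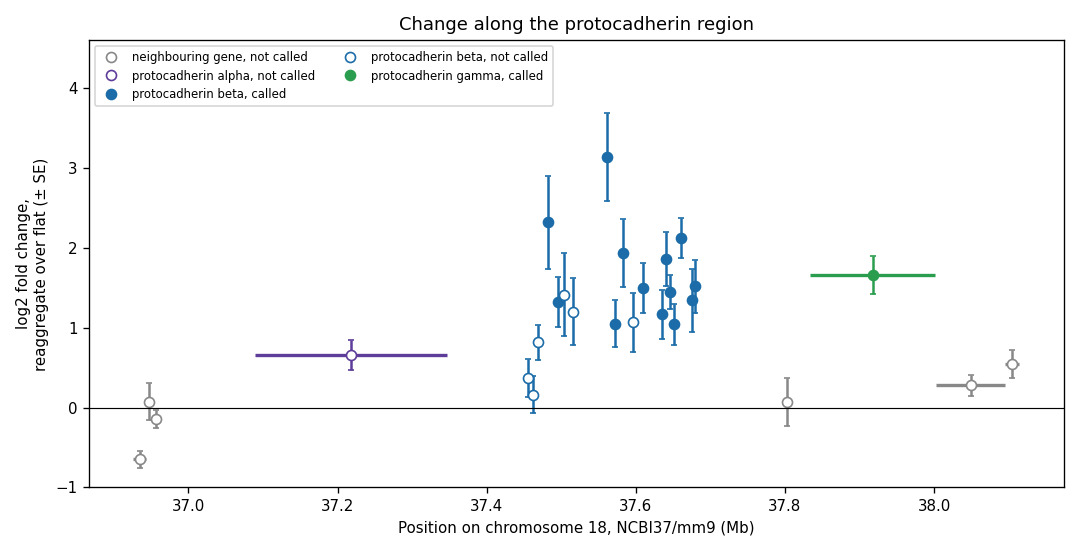
Fitted log2 fold change of reaggregates over flat cultures (vertical axis, bars for SE) against position on chromosome 18 in Mb (NCBI37/mm9), with filled circles for called genes and horizontal lines for the span of each gene. The beta genes (blue) lie between 0.16 and 3.13 and the gamma identifier (green) at 1.66, whereas the 6 neighbouring genes tested (grey) lie between −0.64 and 0.55.

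Members of the cluster are similar in sequence, and reads with several alignments had been shared out between genes by the authors. In annotated transcripts, between 0% and 11.99% of the 50-base windows of a beta gene, the length of a read, recurred exactly in another protein-coding gene, with a median of 3.84%. The share was under 10% for 19 of the 21 genes, and highest for *Pcdhb12* and *Pcdhb11*, at 11.99% and 11.4%. It was 1.94% for *Pcdhb16*, 5.16% for *Pcdhb17*, 8.75% for *Pcdhb9* and 2.48% for *Pcdhb19*. Values of about the level of 1 read in *Pcdhb6*, *Pcdhb8* and *Pcdhb11* in flat cultures may hold such divided reads and are uncertain. The beta sum does not depend on how reads were divided among beta genes. For *Pcdha11* the share was 11.65%, of which none recurred in another of the 25 entries found there. Most of it, 11.21% of the windows, recurred in a gene outside these entries, whose name was not looked up. The alpha sum may therefore depend on how such reads were divided. *Pcdha6* and *Pcdhga2*, absent from that annotation, could not be examined for shared windows.

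Among reaggregates, beta genes varied with the consecutive pairs. Reaggregates 3 and 4, singled out after the values were seen, held the 2 highest of 6 values for 10 of the 19 beta genes tested, or 52.6%, and for 3177 of all 16933 genes, or 18.8%. The mean of these 2 libraries exceeded that of reaggregates 5 and 6 by a ratio of 6.74 for *Pcdhb5*, 5.28 for *Pcdhb7*, 2.57 for *Pcdhb9* and 1.78 for *Pcdhb16*. The ratio was under 1 for *Pcdhb17*, *Pcdhb21* and *Pcdhb22*, at 0.792, 0.511 and 0.690, so not all beta genes varied together. For *Pcdhga11* the ratio was 1.10. In each pair 1 culture had received IL-3 and the other had not, so the differences between pairs are not those between IL-3 labels.

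IL-3 was compared within the reaggregates, 3 with it and 3 without. The beta sum was 152 ± 39.5 RPM with IL-3 and 150 ± 45.0 RPM without it (SD, n = 3 each), and the gamma sum was 1280 ± 127 and 1322 ± 125 RPM. Within consecutive pairs, the gamma sum was lower with IL-3 in all 3, at 1170 against 1186, 1419 against 1431 and 1250 against 1348 RPM, and the beta sum was higher with it in 2 of 3. In limma, 0 of 16933 genes were called, or 0%, with 68 genes and 0 of the 22 clustered protocadherins at an unadjusted p under 0.05. With consecutive reaggregates as a block, there were again 0 calls, with 564 genes and 3 of the 22 entries at an unadjusted p under 0.05. Fitted log2 differences of the 19 beta genes were between −0.65 and 0.50, with a median of 0.03.

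Within the flat cultures, the labelled source was compared, 2 libraries against 2. The beta sum was at 32.1 and 21.5 RPM in flat cultures 2 and 4 with the de Bruijn label and at 40.4 and 72.9 RPM in flat cultures 1 and 3. Of the 19 beta genes, 17 had a fitted log2 difference under 0 with the label, although *Pcdhb2* and *Pcdhb18* were at −0.001 and −0.013. The median log2 difference was −0.56, against −0.17 over all genes. The 4 lowest differences, named after their values were seen, were −2.14 for *Pcdhb9*, −1.52 for *Pcdhb21*, −1.34 for *Pcdhb22* and −1.21 for *Pcdhb16*. In limma none of the 22 clustered protocadherins was called and 6 had an unadjusted p under 0.05, as did 3899 of all 16933 genes. Over all genes, 656 were called lower, or 3.87%, and 309 higher, or 1.82%. No gene was called once any 1 of the 4 libraries was left out. The gamma sum did not follow the label, at 556 and 250 RPM with it and 352 and 608 RPM without. Flat culture 3 was the highest of the flat cultures for 14 of the 19 beta genes, and flat culture 4 the lowest for 9. Since the labels do not say which source the reaggregated cells came from, source and culture condition cannot be told apart.

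Protocadherins outside the clusters changed in both directions. Of 12 listed, 10 were found and 7 tested, of which 2 rose and 1 fell, beside 7.32% and 6.53% of all genes, with a median log2 fold change of 0.51. *Pcdh18* averaged 49.4 ± 8.42 RPM in reaggregates (SD, n = 6) against 12.8 ± 11.96 RPM in flat cultures (SD, n = 4), and the log2 fold change was 2.39 (adjusted p = 0.0054). *Pcdh7* was at 99.9 ± 14.1 and 50.6 ± 16.5 RPM, with a log2 fold change of 1.03 (adjusted p = 0.0056). *Pcdh9* fell without overlap, from 68.0 ± 18.6 RPM in flat cultures to 18.6 ± 1.77 RPM, with a log2 fold change of −1.79 (adjusted p = 0.00019). *Pcdh19*, at 77.8 ± 43.7 and 78.6 ± 22.5 RPM, had a log2 difference of −0.23 (adjusted p = 0.7221).

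Factors that organise and silence the clusters were compared in the same way, beside all genes, of which 7.32% rose, 6.53% fell and 43.3% had an unadjusted p under 0.05. Of 13 genes for CTCF, cohesin and its regulators, 0 were up-regulated and 1 was down-regulated, with 5 at an unadjusted p under 0.05 and a median log2 fold change of 0.39. *Esco2*, an acetyltransferase that acts on cohesin during DNA replication, fell from 31.1 ± 24.5 RPM in flat cultures (SD, n = 4) to 6.24 ± 1.45 RPM in reaggregates (SD, n = 6), with a log2 fold change of −1.87 (adjusted p = 0.0145). It was at 61.5 and 40.1 RPM in flat cultures 1 and 3, but at 7.99 and 14.9 RPM in flat cultures 2 and 4 with the de Bruijn label. Of these, only flat culture 2 was close to the highest reaggregate at 7.44 RPM. The sum of the 13 genes also differed by label, at 1477 and 1442 RPM without it and 680 and 765 RPM with it. The cohesin subunits *Rad21* and *Smc1a* were at 260 ± 34.5 and 147 ± 24.3 RPM in reaggregates and 311 ± 170 and 101 ± 48.5 RPM in flat cultures, and neither was called. *Ctcf* itself, named after its values were seen, was at 64.7 ± 3.63 and 49.6 ± 7.79 RPM, a log2 difference of 0.39 (adjusted p = 0.0424). Of 12 genes for DNA methylation and silencing, 2 rose and 1 fell, with 10 at an unadjusted p under 0.05 and a median of 0.61. The de novo methyltransferase *Dnmt3a* was at 30.1 ± 11.7 RPM in reaggregates and 8.22 ± 6.96 RPM in flat cultures, and the log2 fold change was 2.11 (adjusted p = 0.0124) with overlapping groups. *Wiz*, a zinc finger partner of the histone methyltransferases *Ehmt1* and *Ehmt2*, was at 82.5 ± 12.4 and 42.6 ± 17.2 RPM, with a log2 fold change of 1.01 (adjusted p = 0.0075), again with overlap. *Uhrf1*, which brings the maintenance methyltransferase to replicating DNA, fell from 99.2 ± 52.0 to 30.3 ± 4.03 RPM, with a log2 fold change of −1.56 (adjusted p = 0.0027). *Trim28* and *Ehmt2*, with the highest mean RPM of these genes, had log2 differences of 0.26 and 0.60 and were not called.

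Genes for the processing and the partners of protocadherins were placed beside the same shares over all genes, 7.32% up, 6.53% down and 43.3% at an unadjusted p under 0.05. Protocadherins are cleaved by the protease ADAM10 and then by gamma-secretase. Of 6 such genes, 0 were called in limma, with 2 at an unadjusted p under 0.05 and a median log2 difference of 0.35. *Adam10* averaged 248 ± 28.3 RPM in reaggregates (SD, n = 6) against 170 ± 34.9 RPM in flat cultures (SD, n = 4), and the log2 difference was 0.56 (adjusted p = 0.0251), and *Ncstn*, a gamma-secretase subunit, was at 136 ± 7.64 and 110 ± 36.5 RPM. Of 16 genes for cytoplasmic partners, among them the focal adhesion kinases and the WAVE complex, 15 were tested, 2 rose and 0 fell, with 7 at an unadjusted p under 0.05 and a median of 0.24. *Ctnnb1*, the catenin of adherens junctions and Wnt signalling, was at 1210 ± 141 and 488 ± 55.2 RPM, with a log2 fold change of 1.31 (adjusted p = 0.00025). *Marcks*, a membrane-bound regulator of actin, was at 550 ± 34.6 and 266 ± 89.4 RPM, with a log2 fold change of 1.11 (adjusted p = 0.0029). Neither overlapped between groups.

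Cell type markers were examined to see whether the libraries bore out the stromal label. Stromal markers summed to between 21014 and 29363 RPM in reaggregates and to 11999, 16675, 20164 and 12329 RPM in flat cultures 1 to 4, with *Col1a2* the most abundant in reaggregates and *Vim* in flat cultures. Of 9 listed, 8 were tested, 5 were up-regulated and 1, *Kitl*, the ligand of the KIT receptor and named after its values were seen, was down-regulated, beside 7.32% and 6.53% of all genes, with a median log2 fold change of 1.66. *Col3a1* averaged 2525 ± 570 RPM in reaggregates (SD, n = 6) against 344 ± 436 RPM in flat cultures (SD, n = 4), and the log2 fold change was 4.11 (adjusted p = 0.0044). *Col1a1* and *Col1a2* had log2 fold changes of 1.93 and 1.83, and *Pdgfrb*, a growth factor receptor of mesenchymal cells, 1.74. *Vim*, at 4540 ± 251 and 6623 ± 951 RPM, had a log2 difference of −0.54 (adjusted p = 0.0787). *Thy1* was under the floor in all libraries. The stromal sum rose with the clustered protocadherins, and its part in their increase was not tested.

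Markers of other cell types were mostly low or overlapped between conditions. Of 8 neuron markers 6 were found, and they summed to between 31.4 and 43.5 RPM in reaggregates and to 109, 17.6, 93.6 and 14.2 RPM in flat cultures 1 to 4, so the reaggregates lay within the range of the flat cultures. *Tubb3* and *Syn1* were the most abundant, *Syn1* was at 14.9 ± 1.13 and 13.9 ± 7.02 RPM, and *Elavl3*, *Elavl4* and *Stmn2* were at or near 0. *Snap25*, named after its values were seen, was at 0.570 ± 0.503 and 0.0322 ± 0.0612 RPM with overlapping groups, a log2 difference of 0.89 (adjusted p = 0.0532). In limma 0 of 3 neuron markers tested were called, and *Snap25* alone had an unadjusted p under 0.05. Over all genes, 7.32% were up-regulated, 6.53% were down-regulated and 43.3% had an unadjusted p under 0.05. So few markers cannot be told apart from these shares. Of the blood and endothelial markers, 0 of 2 and 0 of 1 tested were called, with 0 at an unadjusted p under 0.05. The same shares over all genes apply, and these counts are again too small to differ from them. None of the 4 epithelial markers found was above 0.5 RPM. *Sox10*, *Ptprc*, *Epcam* and *Krt18* were listed at 0 in every library. The epithelial markers summed to at most 0.479 RPM, with *Cdh1* the most abundant in flat cultures and at 0 in reaggregates. The endothelial markers summed to at most 1.03 RPM in any library, with *Pecam1* having the highest mean. *Cd34*, at 0 in flat cultures 2 and 4, made up most of the blood marker sum in the other libraries, and *Itgam* stayed between 0.198 and 0.683 RPM. This sum was between 8.54 and 55.2 RPM in reaggregates and at 73.3, 0.198, 26.9 and 0.683 RPM in flat cultures. Adipocyte markers followed the source label among flat cultures, with sums of 440 and 715 RPM in flat cultures 2 and 4, 31.3 and 47.4 RPM in flat cultures 1 and 3, and between 19.3 and 45.6 RPM in reaggregates, nearly all of it *Fabp4*. *Fabp4* was the 1 adipocyte marker of 4 tested that was called, with a log2 fold change of −2.37 (adjusted p = 0.0385) and overlapping groups. Over all genes 6.53% were down-regulated. Of these 4 markers, 2 had an unadjusted p under 0.05 in limma, beside 43.3% of all genes. The part of these markers in the beta values of flat cultures 2 and 4 was not tested.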

How the data were processed

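RNA-seq of 6 reaggregate and 4 flat OP9 cultures was compared. Per the submitters' processing notes and the Methods, the authors ran TopHat 1.2.0 against NCBI37/mm9, counted reads on genes of Ensembl 58 and shared out those with several alignments. The authors deposited RPM values, the reads of a gene per 1e6 reads on genes. Further deposited columns, which hold the log2 fold change and the adjusted p-value of the DESeq comparison between both conditions, were not used. All columns of values were matched to libraries, which were grouped by their labels. Since only between 62.2% and 66.2% of low values (up to 1 RPM) were whole reads within 0.05 reads, no count test was run.

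From the RPM values, limma 3.58.1 in R 4.3.3 was fitted to log2(RPM + 0.5) for genes that exceeded 0.5 RPM in some library, without covariates, with empirical Bayes moderation and a mean-variance trend, and p was adjusted over all genes tested by the Benjamini-Hochberg procedure. The fit was tested on simulated data. IL-3 was compared within reaggregates and the source label within flat cultures. Since the independence of replicates was not stated, p measures the spread between these libraries, which may be technical. Alternatives varied the pseudocount, filter, scaling, pairing and libraries used. Positions came from a later Ensembl annotation of the same assembly. Tables and figures were made with pandas 2.3.3 and matplotlib 3.10.9 in Python 3.11.15.

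Members and lists were chosen with earlier results of these data known. For called members and the 6 members of each cluster with the highest mean RPM, values were given for every flat culture, and for reaggregates as lowest, median and highest or in full. From other lists, at most 4 called genes with the largest absolute log2 fold change and the 2 genes with the highest mean RPM were named, and further genes were named after their values were seen. From the list of glia markers, 2 genes are not reported here, and of the rest only *Sox10* is named.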

Additional observations from a re-analysis of the deposited data

Results flagged for a closer look

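Single libraries stood far from the others of their group in 11 of 117 groups examined, where chance gives about 1 in 20 groups, or 5.85. That figure assumes independent groups of continuous, normally distributed values. Groups at 0 in all but 1 library do not meet this, nor does the alpha sum beside *Pcdha11*, so it is a rough guide. Of the 11 groups, 8 concerned flat culture 3. Among beta genes, it was far above the other flat cultures for *Pcdhb5*, at 3.19 RPM against at most 1.47 RPM, for *Pcdhb7*, at 1.25 against 0.314 RPM, and for *Pcdhb11*, at 1.69 against 0.115 RPM. It was also apart for *Pcdhb6*, at 0.12 against 0.0101 RPM, and for *Pcdhb8*, at 0.121 RPM against 0, values of about 1 read. The endothelial marker *Tek*, at 0.24 against 7.19e-05 RPM, and the epithelial marker *Krt8*, at 0.12 RPM against 0, were likewise near the level of 1 or 2 reads. *Pcdh9* was far lower in flat culture 3, at 40.1 RPM where the next flat culture was at 76.1 RPM.

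Flat culture 1 was apart in 2 groups. It was low for *Pcdha11*, at 0.0384 against 0.109 RPM, and so for the alpha sum, at 0.0768 against 0.218 RPM, all under the floor of 3 reads. Among reaggregates, *Cidec* was at 0.109 RPM in reaggregate 3 and at 0 in the others, a difference of 1 read.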

How the results depend on the processing

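The increase of the gamma entries was called in every alternative, and the log2 fold changes of beta genes stayed above 0 in all alternatives but for 1 of 21 without a filter, *Pcdhb1*, which had no reads. The filter favours this sign for the 6 of 19 that passed through reaggregates only. The log2 differences of the 3 cluster sums kept their sign, between 1.40 and 1.82 for gamma, 1.68 and 2.26 for beta and 0.50 and 0.67 for alpha when libraries were left out in turn. The beta sum moved most by flat source, from 1.95 to 1.43 against flat cultures without a source label and 2.46 against those with the de Bruijn label. These moves exceeded the log2 SD of the beta sum in reaggregates, 0.35, but not that in flat cultures, 0.73. Counts of calls moved more. Up-regulated genes, 1239 with all libraries, numbered 321 with consecutive reaggregates averaged, 627 against flat cultures without a source label, 2579 against those with the de Bruijn label, 345 with the reaggregates without IL-3, 277 with those with IL-3, and between 766 (without flat culture 4) and 2121 (without flat culture 3) when libraries were left out in turn. Down-regulated genes, 1106, numbered 429, 1044, 1775, 474 and 360 in the same settings, and between 815 and 1522 with libraries left out. Up-regulated beta genes, 13, numbered 3, 5, 13, 4 and 3, of which 3, 5, 13, 4 and 2 were among the 13, and between 9 and 15 with libraries left out. Fewer samples were compared in these settings, and the cause was not tested further. With a pseudocount of 0.1, 1 alpha entry was up-regulated in place of 0. With pseudocounts of 0.1 and 1, 17 and 9 beta genes were called. Over all genes, 1387 and 1085 were up-regulated in these settings, or 8.19% and 6.41%. The all-gene median moved to 0.13 against flat cultures with the de Bruijn label and stayed within 0.1 of 0 in all other settings. Between flat cultures 965 genes were called, in comparison with 166 in a fit without a filter and 0, the lowest and the highest, with any 1 library left out, where the lone library was assumed to vary like the others. A filter within the libraries compared, chosen after seeing the data, gave 1587 such genes and 1 clustered protocadherin in place of 0. All calls for IL-3 stayed at 0.

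With the replicate block, 1885 genes were up-regulated and 15 beta genes were. The numbers did not pair the samples: correlations of deviations were −0.04, −0.21, 0.07 and 0.15 for numbers 1 to 4, and of the flat cultures only number 4 correlated best with the reaggregate of its own number. Of the 16 members named with values, the block ended the calls of *Pcdhb21* and the adjusted p at most 0.05 of *Pcdha11*. Depth limits the alpha entries and the 6 beta genes that entered the fit through reaggregates only.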
